A study of Rattus norvegicus with 9 samples.

Results

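The miR-130 and miR-301 family comprises microRNAs whose 3p arms carry one seed, the bases 2 to 8 that pair with target transcripts. Its members here were the rows of the count table named rno-miR-130a-3p, rno-miR-130a-5p, rno-miR-130b-3p, rno-miR-130b-5p, rno-miR-301a-3p, rno-miR-301a-5p and rno-miR-301b-3p, which are 7 of the 762 mature rat miRNAs listed. The prefix rno, for Rattus norvegicus, is dropped from here on. A count was found for 6 of the 7, and 5 were abundant enough to test. These 5 are therefore not all members, and the other 2, miR-130b-5p and miR-301b-3p, are given by their counts.

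The libraries hold small RNA of vascular smooth muscle cells grown from rat aorta, in 3 states with 3 libraries each. For differentiated cells the treatment is labelled as none. PDGF-BB cells, which the titles call de-differentiated, received platelet-derived growth factor BB, a smooth muscle mitogen, at 30 ng/ml for 24 h after serum starvation. H3K4me2-edited cells, also called de-differentiated, were transduced with a lentivirus expressing Myocardin-F-LSD1, in which myocardin normally activates contractile genes with serum response factor and LSD1 is a histone H3 lysine 4 demethylase. The labels give no rat strain, sex, passage or promoter for the construct, and do not say whether starvation also applied to differentiated and edited cells. Libraries of cells with a control lentivirus were not analysed here, so transduction and the construct cannot be told apart. The labels do not tell whether each replicate was its own culture. The p-values therefore reflect only how far these libraries spread, and that spread may be technical.

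A hairpin precursor is cut into a 5p and a 3p arm, and usually one arm, the guide, is loaded into an Argonaute protein and kept while the other, the passenger, is degraded. In this family the 3p arm is the guide. In human and rodent vessels the family is known for repression of PPARgamma, a nuclear receptor that restrains smooth muscle growth, and for a part in pulmonary hypertension. In vascular smooth muscle miR-130a has been linked to proliferation through Meox2, a growth-arrest homeobox factor.

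Mature sequences of 6 of the 7 members are given from RefSeq (build GRCr8), 5′ to 3′, with the seed in capitals, since the shared seed is what makes these arms a family. miR-301a-3p is named only.
miR-130a-3p: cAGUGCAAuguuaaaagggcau
miR-130b-3p: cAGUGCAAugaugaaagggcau
miR-301b-3p: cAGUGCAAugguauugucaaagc
miR-130a-5p: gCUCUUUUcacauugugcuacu
miR-130b-5p: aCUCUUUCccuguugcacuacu
miR-301a-5p: gCUCUGACuuuauugcacuac
The 3p arms printed share the seed AGUGCAA and part after it. Counted from the 5′ end, miR-130a-3p and miR-130b-3p have the same base at 20 of 22 positions, and miR-130a-3p and miR-301b-3p at 13 of 22. The seeds of the 5p arms differ from each other.

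The family comes from 4 hairpins in 3 places of GRCr8, a later build than the Rnor_6.0 that the submitters name. Mir130a lies on the minus strand at chr3:90229228-90229315. Mir301a lies on the plus strand at chr10:72422599-72422698, within the annotated spans of Ska2, a gene on the same strand that encodes a spindle and kinetochore protein, and of Prr11 on the opposite strand. Mir301b (chr11:97384033-97384110) and Mir130b (chr11:97384380-97384461) lie on the plus strand, 269 bases apart, within the annotated span of 2610318N02Rikl, a protein-coding gene on the same strand. Another annotated hairpin, Mir3590, lies opposite Mir130a, and its arms miR-3590-3p and miR-3590-5p had 2 counts and 0 counts over the 9 libraries.

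Library totals ran from 1783409 to 11392178 counts, with the 2 deepest libraries among the edited. Levels are CPM, counts relative to library size, scaled by TMM factors, which correct for differences in library composition. Marker miRNAs of smooth muscle, led by miR-143-3p, summed to between 214839 and 251386 CPM in differentiated, 133164 to 171193 after PDGF-BB and 37105 to 63115 in edited libraries. All 7 of these markers had a count in some library, but miR-133b-3p had only 1 count, in PDGF-BB replicate 1. miR-1-3p reached at most 15.2 CPM and miR-133a-3p at most 6.62 CPM, both in differentiated replicate 1. For endothelium the 2 arms of miR-126a together gave 1760.0 to 2145 CPM in differentiated, 1791 to 1895 after PDGF-BB and 2905 to 3346 in edited libraries. The 5 blood markers (17.8 to 35.7 CPM over all libraries) and the 6 epithelial markers (22.4 to 105 CPM) were low in sum. The epithelial markers moved both ways in edited against differentiated cells, where miR-200a-3p, miR-200b-3p and miR-429 fell by 4.69 to 5.25 on the log2 scale and miR-200c-3p, miR-141-3p and miR-203a-3p rose by 1.91 to 3.0005. Of the 3 neural markers miR-124-3p was at 0 counts while the miR-9a arms took the sum from 26.7 to 41.1 CPM in the other groups to 144 to 145 in edited libraries. These markers moved with the groups compared below, and their part in the results was not tested. In RNA of whole cultures, fewer cells of a type and less RNA per cell cannot be told apart.

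As a whole the family was lower in edited cells than in the other states, with most of the gap in its main member, miR-130a-3p. Its summed level was 4815 ± 236 CPM in differentiated, 4454 ± 526 after PDGF-BB and 2887 ± 247 in edited cells (mean ± SD, n = 3 libraries throughout). With library totals as the scaling the means were 4209.6, 4254 and 3446 CPM, a smaller gap in the same order for edited against the others. As a share of all counts the members took 0.399%, 0.425% and 0.440% in the differentiated, 0.450%, 0.426% and 0.401% in the PDGF-BB and 0.363%, 0.361% and 0.309% in the edited libraries. These sums are descriptions and were not tested.

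Among the members 2 guides held nearly all counts. miR-130a-3p took 72.6% to 77.2% of the family in differentiated, 74.3% to 79.9% after PDGF-BB and 62.9% to 65.1% in edited libraries. miR-301a-3p took 22.2% to 26.5%, 19.4% to 24.8% and 33.8% to 36.1% in the same order of groups. By mean level over the 9 libraries miR-130a-3p ranked 47 and miR-301a-3p 62 of the 762 miRNAs, and miR-301a-5p, miR-130a-5p, miR-130b-3p and miR-301b-3p ranked 200, 273, 278 and 342. Mature arms are of nearly equal length, so counts may be set side by side, although capture by the library kit can differ between sequences. The order of levels was miR-130a-3p, miR-301a-3p, miR-301a-5p, then miR-130a-5p and miR-130b-3p, whose levels did not differ beyond their spread, and then miR-301b-3p.

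**Figure D1:**
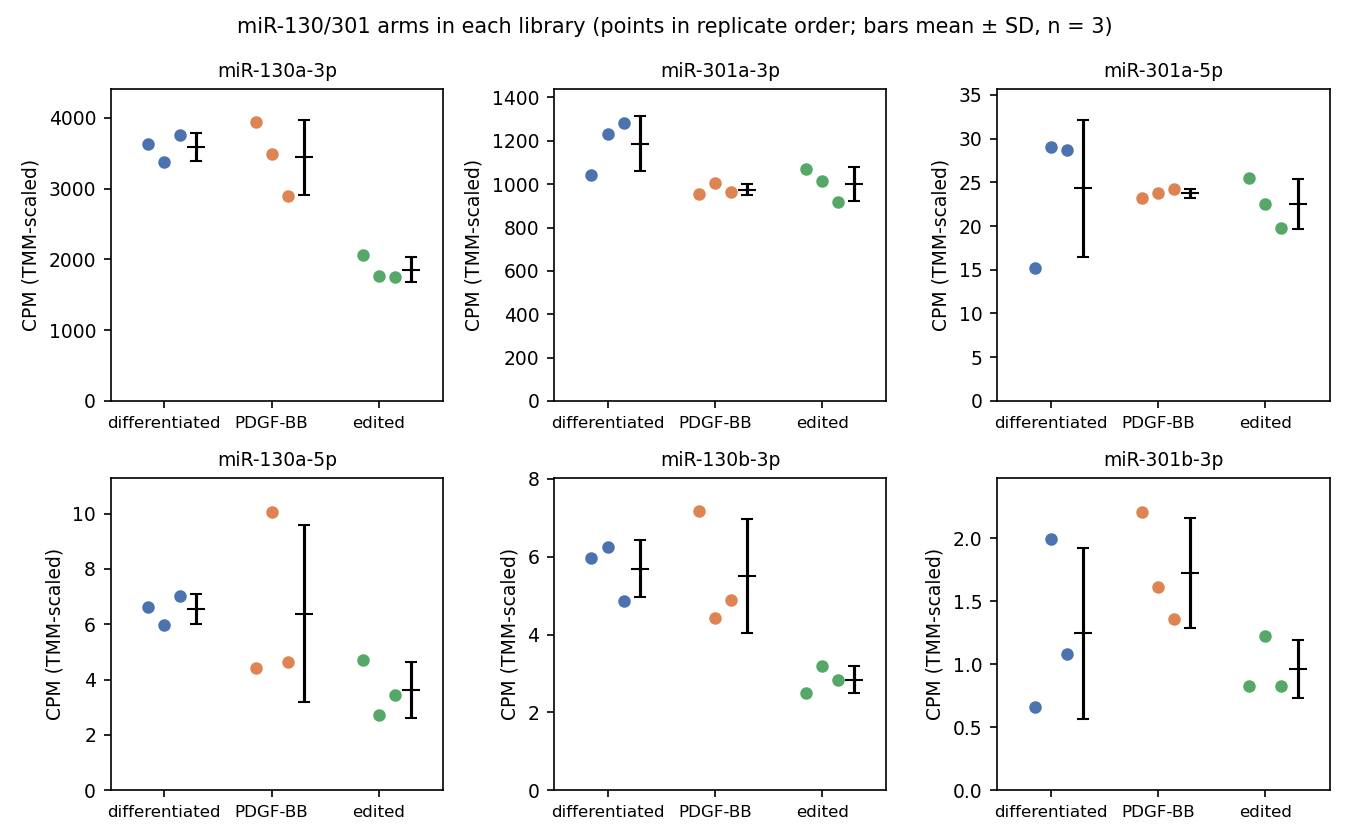
TMM-scaled CPM (linear axis from 0, a scale of its own per panel) of the 6 members with a count in each of the 9 libraries, grouped by state, with mean ± SD beside the points. The 3 edited libraries sit between 1745 and 2060.1 CPM for miR-130a-3p, below every other library, while for miR-301a-3p their range, 917 to 1069.9 CPM, overlaps those of both other groups.

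The main guide, miR-130a-3p, was the member that changed most clearly. Its level was 3634, 3379 and 3759.9 CPM in differentiated replicates 1 to 3, 3939.9, 3493 and 2891 in PDGF-BB replicates and 2060.1, 1764 and 1745 in edited replicates. The edited libraries were all lower than the other 6, and the differentiated and PDGF-BB ranges overlapped. The group means were 3591 ± 194, 3441 ± 526 and 1857 ± 177 CPM.

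miR-130b-3p, a guide with the same seed from another chromosome, followed the same order at a far lower level. Its counts were 9, 22 and 9 in differentiated, 13, 11 and 18 after PDGF-BB and 9, 47 and 24 in edited libraries. Edited replicates 2 and 3 were the deepest libraries of all. Scaled, the counts are 5.96, 6.26 and 4.87 CPM, 7.19, 4.43 and 4.90 CPM, and 2.49, 3.20 and 2.84 CPM. The edited libraries lay below all the others here too. Set against miR-130a-3p within each library, miR-130b-3p stood at 0.121 to 0.185 counts per 100 counts of miR-130a-3p over the 9 libraries, with means of 0.160, 0.160 and 0.155 in differentiated, PDGF-BB and edited cells. The exact 95% counting intervals of the 9 libraries all overlap. The sequences differ at 2 positions, and how the submitters' counting split near-identical arms was not given in the sources used here. Whether some miR-130b-3p counts are reads of the far more abundant miR-130a-3p was not tested, so the level of miR-130b-3p is uncertain.

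The 3p guide of miR-301a, the second member by level, was at 1043, 1232 and 1284 CPM in differentiated, 957, 1004 and 965 after PDGF-BB and 1069.9, 1013 and 917 in edited libraries. The PDGF-BB libraries were lower than the differentiated ones without overlap, by a small margin. With library totals in place of TMM factors the differentiated libraries were at 884 to 1124 CPM and the PDGF-BB ones at 873 to 993, which overlap. The edited range overlapped both others. Group means were 1186 ± 127 CPM in differentiated and 975 ± 25.2 CPM in PDGF-BB cells, and the SD of the edited libraries was 77.3 CPM.

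The passenger arms were rare. miR-130a-5p had 10, 21 and 13 counts in differentiated, 8, 25 and 17 after PDGF-BB and 17, 40 and 29 in edited libraries, or 6.54 ± 0.533, 6.38 ± 3.20 and 3.62 ± 1.00 CPM. PDGF-BB replicate 2, at 10.1 CPM, was above both other PDGF-BB libraries (4.42 and 4.63). Edited libraries, at 2.73 to 4.71 CPM, were below the differentiated ones (5.98 to 7.03) and overlapped the PDGF-BB ones. miR-301a-5p was at 24.3 ± 7.87, 23.7 ± 0.502 and 22.6 ± 2.87 CPM, with differentiated replicate 1 (15.2 CPM, 23 counts) below the other 8 libraries (19.7 to 29.0 CPM).

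The 3p arm of miR-301b had 1, 7 and 2 counts in differentiated, 4, 4 and 5 after PDGF-BB and 3, 18 and 7 in edited libraries, which is 0.662 to 2.21 CPM over the 9 libraries with overlapping groups. It was not tested. miR-130b-5p had 0 counts in every library, which allows up to 1.99 CPM in differentiated replicate 1, the shallowest, and up to 0.205 CPM in edited replicate 2, the deepest. The 5p arm of miR-301b, not a member, was also at 0 counts. Such limits and the counting intervals cover counting error only.

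The PDGF-BB comparison asks which members differ after the mitogen and the serum starvation before it, which cannot be told apart from these labels. None of the 5 tested members passed the edgeR quasi-likelihood test at an adjusted p of 0.05, against 10.2% of all 304 tested miRNAs, a share that rests on 31 calls and fell to 3 calls without differentiated replicate 3. At an unadjusted p under 0.05 the count was 1 of 5, miR-301a-3p, against 24.3% of all tested miRNAs. It was also the 1 of 5 members called by DESeq2, which called 15.8% of all, so both shares of the members are near the background. Its log2 fold change was −0.28 ± 0.11 (SE), with a 95% interval from −0.52 to −0.04 and an edgeR adjusted p of 0.144 (DESeq2 adjusted p = 0.00650). Its groups did not overlap with TMM scaling, which held for 1 of 5 members and 35.2% of all tested miRNAs.

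For miR-130a-3p the log2 fold change after PDGF-BB was −0.06 ± 0.13, with a 95% interval from −0.34 to 0.22 (edgeR adjusted p = 0.789). The interval does not reach the fall of this guide in edited cells given further on. The lower members were measured loosely, with intervals of −0.88 to 0.83 for miR-130a-5p, −0.75 to 0.55 for miR-130b-3p and −0.59 to 0.46 for miR-301a-5p. The signs of the fold changes of these 3 and of miR-130a-3p turned with library totals as the scaling, at values near 0. The median was −0.06 over the 5 members and 0.03 over all tested miRNAs.

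In edited against differentiated cells 2 of the 5 tested members fell, miR-130a-3p and miR-130b-3p, where 27.0% of all tested miRNAs fell. miR-130a-3p fell by 0.95 ± 0.13 on the log2 scale, with a 95% interval from −1.23 to −0.67 and an edgeR adjusted p of 2.3e-04. miR-130b-3p fell by 0.98 ± 0.28, with an interval from −1.60 to −0.36 and an edgeR adjusted p of 0.0135. The passenger miR-130a-5p had a like value of −0.91 ± 0.37 and did not pass (edgeR adjusted p = 0.0563). It passed with the 6 compared libraries alone (0.0381), without PDGF-BB replicate 2 (0.0394) and without edited replicate 1 (0.0262).

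The arms of miR-301a had values nearer to 0. The guide miR-301a-3p was at −0.25 ± 0.11, with an interval from −0.49 to −0.01 (edgeR adjusted p = 0.0729), and the passenger miR-301a-5p at −0.15 ± 0.23, from −0.65 to 0.36 (edgeR adjusted p = 0.590). Neither passed, although miR-301a-3p did with RLE factors (edgeR adjusted p = 0.0438), with DESeq2 (adjusted p = 0.0147) and without edited replicate 1 (edgeR adjusted p = 0.0491). With library totals as the scaling both turned upwards without passing, to 0.20 and 0.30. The groups of miR-130a-3p, miR-130a-5p and miR-130b-3p did not overlap, which is 3 of 5 members and 63.5% of all tested miRNAs. miR-130a-3p and miR-130a-5p are arms of the same hairpin, and whether miR-130b-3p counts include reads of miR-130a-3p was not tested. These members may therefore not be separate observations. The median log2 fold change was −0.91 over the 5 members and −0.01 over all tested.

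Scaling moves these values together. With library totals in place of TMM factors the median of all miRNAs shifted upwards by 0.45 in this comparison. miR-130a-3p was then at −0.50 and still passed (edgeR adjusted p = 0.00250), while miR-130b-3p, at −0.52, did not (edgeR adjusted p = 0.152). The call of miR-130b-3p was also lost without the filter for low counts, with counts thinned to the smallest library, and without differentiated replicate 1 or 2.

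Edited against PDGF-BB cells, which shares the edited libraries with the previous comparison, gave 2 falls among the 5 tested members, where 30.9% of all tested miRNAs fell. miR-130a-3p fell by 0.89 ± 0.13, with a 95% interval from −1.17 to −0.61 and an edgeR adjusted p of 2.7e-04. miR-130b-3p fell by 0.87 ± 0.27 (edgeR adjusted p = 0.0201), a call that was lost in 8 of 16 other settings, including without PDGF-BB replicate 1, edited replicate 2 or edited replicate 3. miR-130a-5p, at −0.88 ± 0.36, did not pass (edgeR adjusted p = 0.0573), but did without PDGF-BB replicate 3 (0.0472) or edited replicate 1 (0.0303).

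For miR-301a-3p this log2 fold change was 0.04 ± 0.11, with an interval from −0.21 to 0.28 (edgeR adjusted p = 0.796), and for miR-301a-5p it was −0.08 ± 0.22 (edgeR adjusted p = 0.774). With library totals miR-301a-3p passed upwards at 0.35 (edgeR adjusted p = 0.0466), where the median of all miRNAs shifted by 0.32. The groups did not overlap for 2 of 5 members, miR-130a-3p and miR-130b-3p, and for 60.2% of all tested miRNAs. As above, these members may not be separate observations. The median was −0.87 over the members and −0.02 over all tested.

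**Figure D2:**
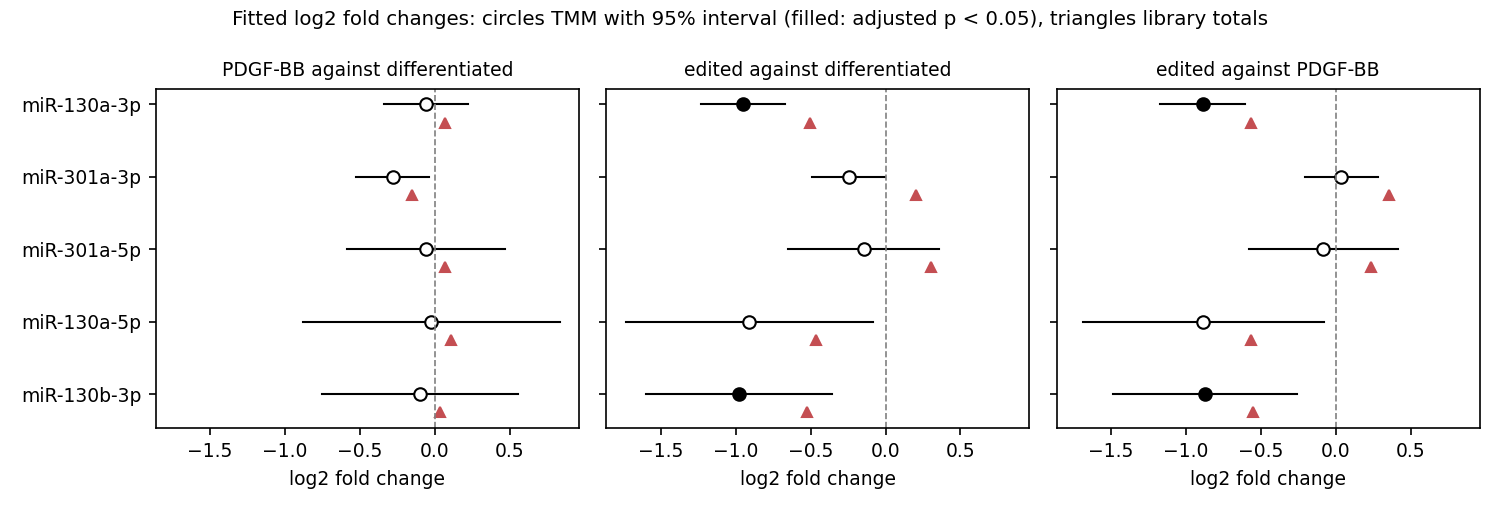
Fitted log2 fold changes (horizontal axis) of the 5 tested members in the 3 comparisons, with TMM factors as circles on their 95% intervals (filled where the adjusted p is under 0.05) and with library totals as triangles. In both edited comparisons miR-130a-3p and miR-130b-3p lie left of 0 under either scaling, while miR-301a-3p is closer to 0 and moves right with library totals.

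A ratio of counts within a library does not depend on the scaling. miR-301a-3p per 100 counts of miR-130a-3p was 28.7, 36.5 and 34.1 in differentiated, 24.3, 28.7 and 33.4 after PDGF-BB and 51.9, 57.4 and 52.5 in edited libraries. The edited libraries were all higher than the other 6, by far more than their exact 95% counting intervals, of which the lowest edited bound was 49.9 and the highest bound elsewhere 37.75. The means were 33.1 ± 3.97, 28.8 ± 4.555 and 54.0 ± 3.01. These guides carry the same seed by family, so the ratio describes the makeup of that seed's pool, and it shows unequal change without telling which of them changed.

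The ratio between arms of one hairpin was also independent of scaling. miR-130a-5p stood at 0.182 ± 0.00510, 0.187 ± 0.0911 and 0.193 ± 0.0370 counts per 100 counts of miR-130a-3p in differentiated, PDGF-BB and edited cells. For miR-301a the 5p arm stood at 2.02 ± 0.487, 2.44 ± 0.0718 and 2.25 ± 0.117 per 100 counts of its 3p arm. This count ratio was higher than that of miR-130a in each library, although capture by the library kit can differ between sequences. The groups overlapped for miR-130a. For miR-301a the PDGF-BB libraries (2.37 to 2.51) were just above the differentiated ones (1.46 to 2.36) without overlap, and the edited libraries (2.15 to 2.38) overlapped both. The exact 95% counting intervals of all 9 libraries overlap for miR-301a.

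**Figure D3:**
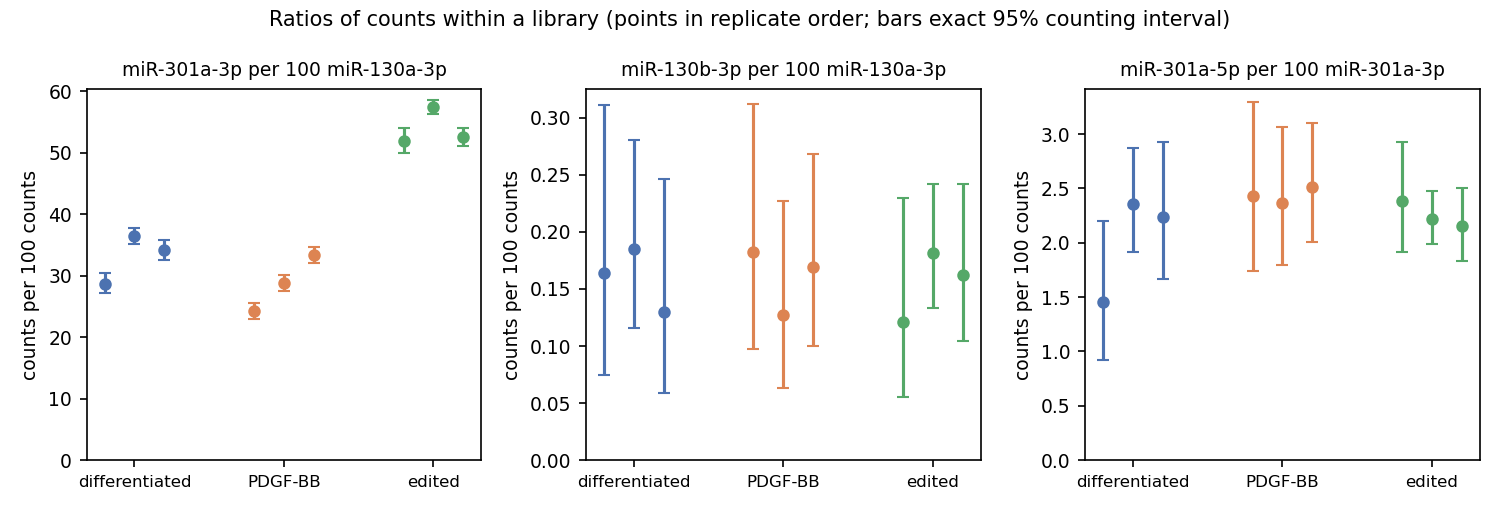
Counts of one arm per 100 counts of another within each library (linear axes from 0), with exact 95% counting intervals as bars and libraries grouped by state. The ratio of miR-301a-3p to miR-130a-3p is 51.9 to 57.4 in edited libraries against 24.3 to 36.5 elsewhere, while miR-130b-3p to miR-130a-3p and the arms of miR-301a keep overlapping intervals.

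For each tested member the miRNAs outside the family with the most similar profile were taken by Pearson correlation of log2 CPM over the 9 libraries. For miR-130a-3p they were miR-143-3p (r = 0.971), miR-1-3p (r = 0.969) and miR-429 (r = 0.968). The first 2 are muscle miRNAs and the last an epithelial one, and all 3 were low in the edited libraries. There miR-1-3p had 4, 1 and 0 counts and miR-429 had 5, 5 and 2, so their log2 CPM depend partly on the prior count. Values near 1 over these 9 points rest mainly on the gap between edited and other libraries, which also differ in depth.

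Profiles nearest to miR-301a-3p were those of miR-10b-3p (r = 0.859), miR-10b-5p (r = 0.851) and miR-125b-2-3p (r = 0.837). For miR-130b-3p they were miR-191a-5p (0.939), miR-193a-5p (0.932) and miR-145-5p (0.883). For the sparse passenger arms they were miR-330-5p (0.896), miR-3102 (0.879) and miR-328a-3p (0.864) for miR-130a-5p, and miR-874-3p (0.916), let-7c-1-3p (0.680) and miR-148b-3p (0.674) for miR-301a-5p. Within the family miR-130a-3p had r = 0.888 with miR-130b-3p and r = 0.390 with miR-301a-3p. These correlations are descriptions.

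Other miRNAs carry seeds that share 6 bases with AGUGCAA when shifted by 1 position, and overlap of their target sites was not examined. These miRNAs are shown because of this shared stretch, and what their levels mean for targets of the family was not tested.
miR-148a-3p: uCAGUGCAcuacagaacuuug
miR-148b-3p: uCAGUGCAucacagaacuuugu
miR-152-3p: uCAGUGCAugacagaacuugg
miR-19a-3p: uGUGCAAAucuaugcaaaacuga
miR-19b-3p: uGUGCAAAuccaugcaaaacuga
Capitals again mark bases 2 to 8. The miR-148 and miR-152 arms, known as repressors of the DNA methyltransferase Dnmt1, have the family's seed displaced towards the 3′ end, and the miR-19 arms, part of the growth-promoting miR-17/92 clusters, have it displaced towards the 5′ end.

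Of these 5 arms 2 rose in edited against differentiated cells, where 32.2% of all tested miRNAs rose, and none of the others passed. miR-152-3p rose from 9968 ± 1019 to 12963 ± 1452 CPM (log2 fold change 0.38 ± 0.11, edgeR adjusted p = 0.0144). miR-148a-3p rose from 3023 ± 102 to 3631 ± 225 CPM (0.26 ± 0.10, edgeR adjusted p = 0.0364), a call lost with the 6 compared libraries alone and without differentiated replicate 2, differentiated replicate 3 or PDGF-BB replicate 2. miR-148b-3p, at 0.07 ± 0.09, passed only with library totals as the scaling (0.52).

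Against PDGF-BB cells miR-148a-3p (0.55 ± 0.10, edgeR adjusted p = 9.6e-04) and miR-152-3p (0.60 ± 0.11, edgeR adjusted p = 0.00132) rose, where 28.0% of all tested miRNAs rose. miR-19a-3p (−0.52 ± 0.16, edgeR adjusted p = 0.0202) and miR-19b-3p (−0.49 ± 0.14, edgeR adjusted p = 0.0117) fell, and neither fall passed with library totals, at −0.21 and −0.18. Both falls were also lost without edited replicate 2, and that of miR-19a-3p without PDGF-BB replicate 3 or edited replicate 3 and without the filter for low counts. After PDGF-BB none of the 5 passed the edgeR test, with 2 of 5 at an unadjusted p under 0.05 (24.3% of all tested) and 1 of 5 called by DESeq2 (15.8% of all), miR-148a-3p (edgeR −0.29 ± 0.10), which also passed the edgeR test without edited replicate 1.

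miR-204-5p, miR-322-5p (the rodent form of miR-424) and miR-503-5p have been placed downstream of this family and PPARgamma in work on pulmonary vessels. All 3 rose in edited against differentiated cells, where 32.2% of all tested miRNAs rose. miR-322 and miR-503 belong to a shared cluster of neighbouring miRNAs, so their rises are not separate observations. miR-204-5p was at 299, 162 and 159.6 CPM in differentiated, 609, 401 and 478 after PDGF-BB and 513, 1319.6 and 1616 in edited libraries, so the edited range overlapped that of PDGF-BB through replicate 1. Its log2 fold change was 2.48 ± 0.41 against differentiated cells (edgeR adjusted p = 7.6e-04) and 1.22 ± 0.39 against PDGF-BB cells (edgeR adjusted p = 0.0215).

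The rise of miR-204-5p against PDGF-BB cells was lost without PDGF-BB replicate 2 or 3 or edited replicate 2 or 3. After PDGF-BB miR-204-5p was at 1.27 ± 0.40 and did not pass (edgeR adjusted p = 0.0810), whereas it passed with DESeq2 (adjusted p = 0.0265), without the filter for low counts, with the 6 compared libraries alone and without edited replicate 1. miR-322-5p (1.20 ± 0.32) and miR-503-5p (1.55 ± 0.38) rose against differentiated cells with edgeR adjusted p of 0.0105 and 0.00683, although edited replicate 1, at 3595 and 332 CPM, lay within the differentiated range for each. Against PDGF-BB cells all 3 rose as well, where 28.0% of all tested miRNAs rose, with miR-322-5p at 1.41 (edgeR adjusted p = 0.00479) and miR-503-5p at 1.10 (edgeR adjusted p = 0.0297), the latter lost without any 1 of the PDGF-BB replicates or edited replicate 2 or 3. For miR-503-5p edited replicate 1 lay below all PDGF-BB libraries (388 to 425 CPM), so that rise rests on edited replicates 2 and 3, at 1214 and 1042 CPM. After PDGF-BB none of the 3 passed the edgeR test, with miR-204-5p the 1 of 3 at an unadjusted p under 0.05 (24.3% of all tested) and the 1 of 3 called by DESeq2 (15.8% of all). Whether these levels depend on miR-130a-3p was not tested.

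**Figure D4:**
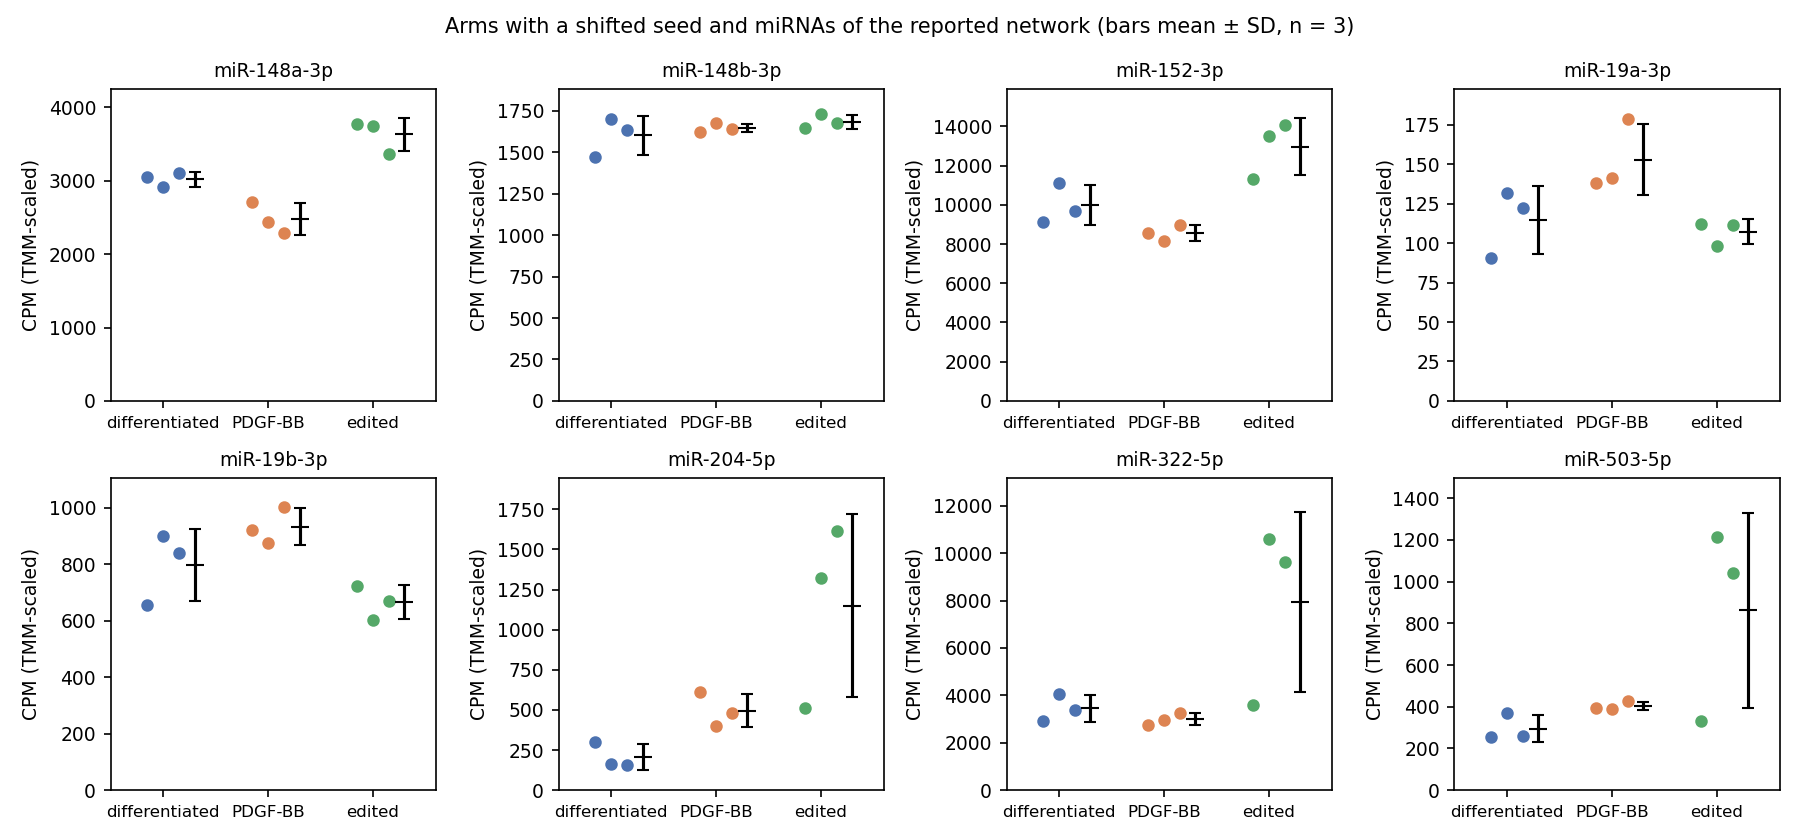
TMM-scaled CPM (linear axis from 0, a scale of its own per panel) of the 5 arms with a shifted seed and of miR-204-5p, miR-322-5p and miR-503-5p in each library, with mean ± SD beside the points. miR-152-3p is highest in the edited libraries, at 12963 ± 1452 CPM, and edited replicate 1 lies far below the other edited libraries for miR-204-5p, miR-322-5p and miR-503-5p.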

How the data were processed

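The authors deposited raw counts for each mature rat miRNA. Per the labels' protocols, RNA was isolated with a miRNeasy kit, a QIAseq small RNA kit gave the libraries, and a NextSeq read them. Per the submitters' processing notes, reads were placed on Rnor_6.0. Its aligner, counting tool, miRBase release and use of molecular identifiers were not given in the sources used here. Titles gave groups and matched the columns, and 0 columns belonged to other samples.

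A single quasi-likelihood model was fitted to the 9 libraries with edgeR 4.0.16 under R 4.3.3, using group means, TMM factors (0.847 to 1.29) and the edgeR filter for low counts (minimum 10). It kept 304 miRNAs of the 502 with a count, and p-values were adjusted over all 304 by Benjamini-Hochberg (threshold 0.05). SEs were obtained as the size of the log2 fold change over the root of its F statistic, and 95% intervals use the model's degrees of freedom. Correlations used log2 CPM with a prior count of 2. Intervals of ratios are Clopper-Pearson intervals of the share, expressed as a ratio. Replicates of a group differed by more than sampling noise, by a chi-square per degree of freedom that also grows with depth. It was 24.4 to 57 between differentiated, 15 to 58.4 between PDGF-BB and 328 to 576 between edited libraries. Alternatives were DESeq2 1.42.0, library totals, RLE factors, no filter, only the 6 compared libraries, a replicate block, thinning and leaving out each library. The fit was tested on simulated data drawn with the same spread for all miRNAs and groups, so that test does not cover unequal spread. All 7 members were named, with 5 arms of shifted seed, 3 miRNAs of a reported network and the 3 nearest profiles of each tested member. The members and lists were chosen with earlier results of these data known.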

Additional observations from a re-analysis of the deposited data

How the results depend on the processing

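The falls of miR-130a-3p in both edited comparisons kept their direction and passed in 16 of 16 other settings, with log2 fold changes from −1.01 to −0.50 and from −1.0004 to −0.57. The number of members called after PDGF-BB was 0 except 1 with DESeq2, and 0 in each fit without 1 library. Against differentiated cells the 2 edited calls became 1 with library totals, without the filter and with thinning, 3 with RLE factors, DESeq2 and the 6 compared libraries alone, and 1 (without differentiated replicate 1 or 2) to 4 (without edited replicate 1) without 1 library. Against PDGF-BB cells they became 1 with DESeq2, without the filter, with thinning and with the 6 compared libraries alone, and 1 (without PDGF-BB replicate 1 or edited replicate 2 or 3) to 3 (without PDGF-BB replicate 3 or edited replicate 1) without 1 library. With library totals the count stayed at 2, but miR-130b-3p was lost and miR-301a-3p passed upwards. Over all miRNAs the 31 calls after PDGF-BB became 48 with DESeq2 and 3 (without differentiated replicate 3) to 53 (without edited replicate 1) without 1 library, with 12 to 18 without any other differentiated or PDGF-BB library. With library totals the family mean moved from 4815 to 4209.6 CPM in differentiated and from 2887 to 3446 CPM in edited cells.

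Signs turned for values that had not passed. After PDGF-BB these were, with library totals, miR-130a-3p (0.0649), miR-130a-5p (0.10), miR-130b-3p (0.0301) and miR-301a-5p (0.0697), with thinning miR-130a-5p (0.13) and miR-301a-5p (0.0304), with the 6 compared libraries miR-130a-5p (0.0027), and miR-148b-3p with RLE factors (−0.0125) and DESeq2 (−0.0137). Without 1 library they ranged from −0.18 to 0.0523, −0.51 to 0.20, −0.30 to 0.03 and −0.26 to 0.11 for miR-130a-3p, miR-130a-5p, miR-130b-3p and miR-301a-5p. In edited against differentiated cells library totals turned miR-301a-3p (0.20), miR-301a-5p (0.30), miR-19a-3p (0.33) and miR-19b-3p (0.18), and no filter turned miR-19a-3p (0.0079). Without 1 library miR-301a-5p ranged from −0.31 to 0.0542 and miR-19a-3p from −0.19 to 0.035. Against PDGF-BB cells miR-301a-5p turned with library totals (0.23) and no filter (0.034) and ranged from −0.11 to 0.038 without 1 library. The causes were not tested.

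Nothing in the labels ties libraries of equal replicate number. Deviations of same-numbered libraries correlated over 0.1 in 4 of 9 pairs, and a library was closest to its own number in 11 of 18 cases. With a replicate block the members called stayed at 0, 2 and 2 in the 3 comparisons, and all miRNAs called were 29, 182 and 181. Depth limits miR-130a-5p, miR-130b-3p and miR-301b-3p, which had at most 47 counts in any library.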
